A study of Mus musculus with 6 samples.

Results

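Collagen genes were examined in heads of mouse embryos lacking Arid3b, which binds DNA through an AT-rich interaction domain, against wild type heads. The members were all genes whose symbol is Col, a number, the letter a and a number, found through the accession of each non-control probe. The RefSeq table used for names held 44 such genes, and 42 of them had a named probe on the array, with 61 probes in all out of 39429 non-control probes. Col6a3 and Col12a1 had no named probe. A probe was kept if every array of either group, or of both, showed it well above background, which left 45 collagen probes and 32 collagen genes among 14906 genes tested. All 32 were well above background on all 6 arrays. Of the 10 genes not kept, Col4a3, Col6a4, Col6a5, Col6a6, Col10a1, Col17a1, Col19a1 and Col28a1 were not well above background on any array, Col8a1 was so on 1 wild type array, and Col9a3 on 1 Arid3b-null and 1 wild type array.

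Collagens are secreted or membrane proteins whose chains wind into a triple helix. Fibrillar collagens form the load-bearing fibres of mesenchyme, cartilage and bone, basement membrane collagens form sheets under epithelia and around vessels, beaded collagens form fine microfibrils between these, and transmembrane collagens sit on the cell surface and can be shed. Chains are hydroxylated and folded inside the cell, trimmed and crosslinked outside it, and bound by cell surface receptors. In the embryonic head, collagens lie in the mesenchyme derived from neural crest and mesoderm and in the basement membranes of the neural tube, surface ectoderm and vessels.

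The samples were Arid3b-null heads (3 pools) and wild type heads (3 pools) at embryonic day 9.5, dissected with the first branchial arch. Each pool held RNA of 4 embryos and was hybridised to one Agilent array with Cy3. The labels give no strain, no description of the null allele and no litter for the pools, and p-values therefore rest on the spread among these pools alone, which may be partly technical. RNA of whole heads mixes many cell types, so fewer cells of a type and less RNA per cell cannot be told apart.

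No spot was saturated, and the share of spots well above background ran from 67.9% to 70.3% over the arrays, whose number limits the precision. Each slide held the Arid3b-null and the wild type array of 1 replicate number, always in positions 2 and 1 of the slide, and the effect of position cannot be told apart from that of genotype. Correlations across genes were 0.992 to 0.993 among Arid3b-null arrays, 0.977 to 0.986 among wild type arrays, and 0.965 to 0.975 between the groups. All 8 neural tube, all 8 mesenchyme and neural crest and all 8 surface ectoderm markers were well above background on all 6 arrays.

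Arid3b itself was checked first. Its values were 1.27, 1.06 and 1.44 in Arid3b-null heads and 1.98, 2.26 and 3.09 in wild type heads, as log2 signal relative to the 75th percentile of the array, the scale of every level given here. The null arrays all lay below the wild type arrays. The difference, Arid3b-null minus wild type, was -1.19 ± 0.29 (SE from limma, n = 3 per group; adjusted p = 0.0265). The other 2 probes gave -1.37 and -2.33. The brightest probe lost its call without Arid3b-null replicate 1, 2 or 3 (adjusted p of 0.0861, 0.0838 and 0.0690). The labels do not say which part of the gene is deleted, and a probe elsewhere in the gene checks nothing.

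Of the 32 collagens, 8 were higher in Arid3b-null heads, 2 were lower and 22 did not pass an adjusted p of 0.05 in limma, where adjustment ran over all 14906 genes. Among all genes tested, 23.5% passed, 12.3% higher and 11.2% lower. The higher collagens were Col20a1, Col6a1, Col23a1, Col4a6, Col4a1, Col26a1, Col16a1 and Col5a1, and the lower ones Col14a1 and Col25a1. The median collagen difference was 0.40 on the log2 scale, against -0.04 over all genes tested. Of the 32 differences 23 were positive (71.9%), against 46.8% over all genes tested. The collagen median within slides 1, 2 and 3 was 0.37, 0.54 and 0.18. In 16 of the 32 collagens the groups did not overlap, as they did not in 42.4% of all genes tested. With the slide as a block, 12 collagens were higher and 2 lower, where 24.7% of all genes passed.

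**Figure D1:**
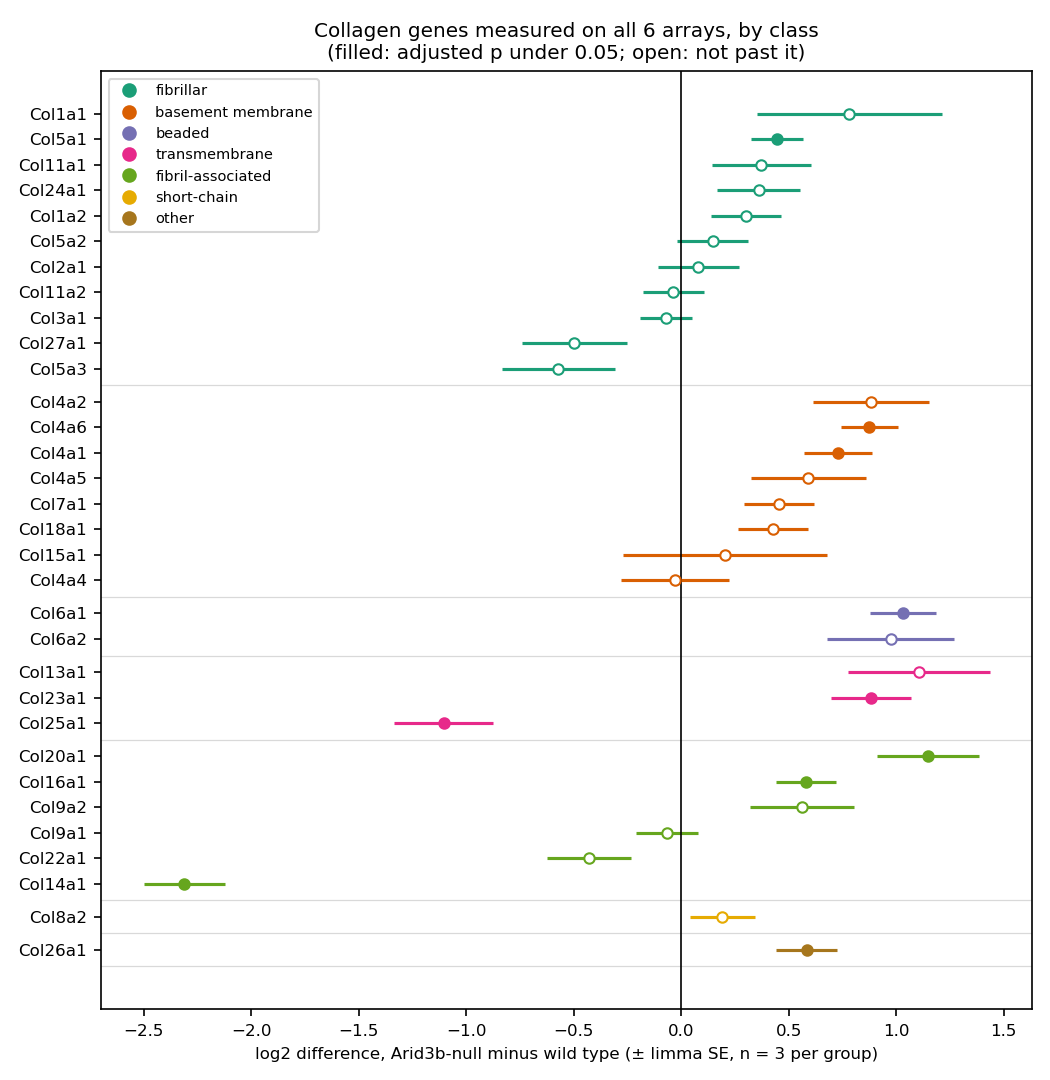
Log2 difference, Arid3b-null minus wild type, of each of the 32 measured collagen genes, grouped by class. Points are limma estimates and bars their standard errors (n = 3 arrays per group), and filled points passed an adjusted p of 0.05. The 2 beaded genes lie near 1, the fibrillar genes spread from -0.57 to 0.78, and Col14a1 stands lowest at -2.31.

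The beaded class had 2 measured members, Col6a1 and Col6a2, chains of type VI collagen that assemble with a further chain into microfibrils around cells. Col6a1 levels were -0.16, -0.26 and -0.10 in Arid3b-null heads and -1.34, -1.31 and -0.95 in wild type heads. All null arrays lay above all wild type arrays. Col6a1 was 2.04-fold higher (log2 difference 1.03 ± 0.15, adjusted p = 0.00516), and it kept its call in all 18 alternatives run, with adjusted p from 0.000448 to 0.0304. Col6a2 levels were -2.04, -2.23 and -1.63 in Arid3b-null heads and -3.30, -3.21 and -2.32 in wild type heads, again without overlap. Its difference of 0.97 ± 0.29 was near that of Col6a1, with a wider spread that left it short of the threshold (adjusted p = 0.0531). With the slide as a block Col6a2 passed (adjusted p = 0.0157).

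The 2 genes lie on chromosome 10 on the minus strand, and upstream windows of both are shown because their differences were alike. The letters come from RefSeq (GRCm38.p6), and each run gives the 250 bases before a gene start. Capitals mark ATTAAA or ATCAAA, AT-rich letters of the kind that AT-rich interaction domains favour, ACGTG or GCGTG, the core bound by low-oxygen response factors, the CCAAT box CCAAT, the GC box GGGCGG and the TATA box TATAAA, on either strand. The Col6a1 window, chr10:76726045-76726294, held none of these, and the Col6a2 window shown, chr10:76623631-76623880, held 1 GC box. A second Col6a2 start has the window chr10:76623405-76623654, not printed, with 3 GC boxes and 1 GCGTG.
Col6a1: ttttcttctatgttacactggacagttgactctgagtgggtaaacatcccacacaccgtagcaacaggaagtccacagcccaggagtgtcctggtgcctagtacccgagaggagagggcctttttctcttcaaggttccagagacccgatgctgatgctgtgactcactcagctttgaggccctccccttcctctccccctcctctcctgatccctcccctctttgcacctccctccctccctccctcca
Col6a2: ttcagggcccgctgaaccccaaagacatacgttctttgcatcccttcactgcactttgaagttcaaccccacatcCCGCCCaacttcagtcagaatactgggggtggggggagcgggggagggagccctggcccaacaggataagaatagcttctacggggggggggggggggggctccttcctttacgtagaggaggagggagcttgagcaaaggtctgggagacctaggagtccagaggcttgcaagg

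The basement membrane class had 8 measured members of 9, of which 2 were higher, none was lower and 6 did not pass. Among all genes tested, 12.3% were higher and 11.2% lower. Their median difference was 0.52 (range -0.03 to 0.88), and within slides 1, 2 and 3 it was 0.83, 0.63 and 0.54. Col4a1 and Col4a2 encode the most widespread chains of type IV collagen, the network former of basement membranes. Col4a1 levels were 2.79, 2.73 and 2.91 in Arid3b-null heads and 1.83, 2.14 and 2.27 in wild type heads. The groups lay apart, and Col4a1 was 1.66-fold higher (log2 difference 0.73 ± 0.16, adjusted p = 0.0178). Its call was lost without Arid3b-null replicate 1, 2 or 3 (adjusted p of 0.0701, 0.0518 and 0.0675).

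Col4a2 levels were 3.04, 2.82 and 3.35 in Arid3b-null heads and 1.77, 2.07 and 2.73 in wild type heads. These groups too lay apart, and the difference of 0.88 ± 0.27 had an adjusted p of 0.0552, and of 0.0240 with the slide as a block. Col4a1 and Col4a2 lie head to head on chromosome 8, and the start windows of the table, which reach past each start into the gene, overlap by 78 bases.

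Col4a5 and Col4a6, chains of a further type IV network, lie head to head on chromosome X. Col4a6 levels were 0.23, 0.31 and 0.10 in Arid3b-null heads and -0.72, -0.56 and -0.71 in wild type heads. The gap between the groups was wider than the spread within either, and Col4a6 was 1.83-fold higher (log2 difference 0.88 ± 0.13, adjusted p = 0.00524). A dimmer second probe of Col4a6 gave the other sign, -0.49 ± 0.18, and did not pass (adjusted p = 0.106 among single probes). Averaging both probes gave 0.19 and no call (adjusted p = 0.347). Col4a5 levels were -0.74, -0.43 and -0.93 in Arid3b-null heads and -0.85, -1.20 and -1.83 in wild type heads. Its groups overlapped, and its difference of 0.59 ± 0.27 did not pass (adjusted p = 0.157).

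The window before the Col4a6 start, chrX:141474077-141474326 on the minus strand, is shown because Col4a6 had the smallest adjusted p of the basement membrane collagens. It held 1 GC box close to the start.
Col4a6: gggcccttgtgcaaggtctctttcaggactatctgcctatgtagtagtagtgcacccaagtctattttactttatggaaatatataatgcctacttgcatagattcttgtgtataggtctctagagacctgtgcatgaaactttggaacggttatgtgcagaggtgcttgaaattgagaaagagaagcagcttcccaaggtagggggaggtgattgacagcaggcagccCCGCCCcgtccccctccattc

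The remaining basement membrane members were Col18a1 and Col15a1, whose cores carry heparan or chondroitin sulphate, Col7a1, the anchoring fibril chain, and Col4a4. Col18a1 was among the brighter signals, with levels of 4.50, 4.71 and 4.36 in Arid3b-null heads and 4.24, 4.15 and 3.89 in wild type heads. Its groups lay apart, and its difference of 0.43 ± 0.16 did not pass (adjusted p = 0.0994). A second Col18a1 probe gave 0.97 ± 0.14 and passed among single probes (adjusted p = 0.00632). The deposited value table gave 1.15 (adjusted p = 0.00486). That table holds fewer probes and its brightest one was picked anew, so this value may come from the second probe again. Col7a1 was also apart between groups, with a difference of 0.45 ± 0.16 (adjusted p = 0.0860). Col15a1 (0.20 ± 0.47) and Col4a4 (-0.03 ± 0.25) overlapped between groups.

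The transmembrane class had 3 measured members of 4. All 3 lay apart between groups, 2 above and 1 below wild type, where 42.4% of all genes tested lay apart. Col23a1 levels were 0.70, 0.40 and 0.79 in Arid3b-null heads and -0.49, -0.29 and 0.03 in wild type heads. Col23a1 was 1.84-fold higher (log2 difference 0.88 ± 0.19, adjusted p = 0.0166). Of its other 2 probes, one gave 0.94 ± 0.53 and the other 0.20 ± 0.26, neither past the threshold, and the mean of its probes gave 0.67 (adjusted p = 0.157). Its call was lost without Arid3b-null replicate 1 or 3 (adjusted p = 0.0709 and 0.0654), and likewise without wild type replicate 1 or 2 (0.0507 and 0.0503).

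Col25a1, known as the collagenous component of amyloid plaques and needed for motor axons to enter muscle in mice, was the one that was lower. Its levels were -3.21, -3.45 and -3.67 in Arid3b-null heads and -2.32, -2.74 and -1.95 in wild type heads. The null arrays lay below all wild type arrays, and Col25a1 was 2.15-fold lower (log2 difference -1.11 ± 0.23, adjusted p = 0.0161). Its 2 dimmer probes gave 0.08 ± 0.26 and 0.78 ± 0.29 without passing. The second of them was above background on 2 of 3 wild type arrays and was kept only through the Arid3b-null arrays. The mean of all 3 probes, that one included, gave -0.08 (adjusted p = 0.789), so the direction of Col25a1 rests on its brightest probe. The call was also lost without Arid3b-null replicate 2 or 3 (adjusted p of 0.0537 and 0.0650).

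Col13a1, a collagen of cell adhesion sites and the neuromuscular junction, had levels of -4.27, -5.10 and -3.76 in Arid3b-null heads and -5.44, -5.72 and -5.29 in wild type heads. The groups lay apart, and the difference of 1.11 ± 0.33 fell just short of the threshold (adjusted p = 0.0509), while it passed with the slide as a block (0.0198). With normexp background correction it was 0.17 (adjusted p = 0.363).

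All 11 fibrillar collagens were measured, and 1 was higher, none was lower and 10 did not pass, against 12.3% higher and 11.2% lower of all genes. Their median difference was 0.15 (range -0.57 to 0.78), and within slides 1, 2 and 3 it was 0.34, 0.33 and -0.07. It was 0.27 without wild type replicate 3, 0.22 without Arid3b-null replicate 3 and 0.09 without wild type replicate 2. Col5a1, a chain of type V collagen, which nucleates fibrils, was the only fibrillar gene whose groups did not overlap (against 42.4% of all genes). Its levels were 0.79, 0.84 and 0.89 in Arid3b-null heads and 0.39, 0.36 and 0.44 in wild type heads, a small difference with little spread. It was 1.36-fold higher (log2 difference 0.45 ± 0.12, adjusted p = 0.0368). This call was lost with the slide as a block (adjusted p = 0.0580) and without Arid3b-null replicate 1, 2 or 3 (0.113, 0.111 and 0.105) or wild type replicate 1 or 2 (0.0930 and 0.123). Its partner chain Col5a2 differed by 0.15 ± 0.16 (adjusted p = 0.562), and Col5a3, another chain of the type, by -0.57 ± 0.26 (adjusted p = 0.163).

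Type I, II and III collagens, the major fibre formers of bone and skin, cartilage, and soft tissue, did not pass. Col1a1 levels were 1.62, 2.23 and 0.90 in Arid3b-null heads and 1.20, 1.18 and 0.02 in wild type heads. The third array of each group was low, and the groups overlapped. The Col1a1 difference of 0.78 ± 0.43 had an adjusted p of 0.232, and of 0.0298 with the slide as a block. Col1a2, which pairs with Col1a1 in the same protein, had levels of 4.77, 4.79 and 4.62 in Arid3b-null heads and 4.21, 4.37 and 4.69 in wild type heads, a difference of 0.30 ± 0.16 (adjusted p = 0.225).

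Col2a1 levels were 4.95, 4.74 and 4.77 in Arid3b-null heads and 4.61, 4.50 and 5.11 in wild type heads, with a difference of 0.08 ± 0.19 (adjusted p = 0.798). Col3a1 levels were 3.28, 3.32 and 3.17 in Arid3b-null heads and 3.30, 3.29 and 3.38 in wild type heads, with a difference of -0.07 ± 0.12 (adjusted p = 0.718). The arrays of both groups were interleaved for these genes. Col11a1 (0.37 ± 0.23) and Col11a2 (-0.04 ± 0.14), chains of the cartilage type XI, also overlapped. The same held for Col24a1 (0.36 ± 0.19) and Col27a1 (-0.50 ± 0.25).

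The window before the Col3a1 start, chr1:45311288-45311537 on the plus strand, is shown as that of a fibrillar gene that did not pass. It held 1 TATA box, and 35.2% of its bases are G or C, the lowest share among the collagen windows. It does not stand for its class. The windows of the other fibrillar genes that did not pass ran from 57.6% (Col11a2) to 62.8% (Col5a3).
Col3a1: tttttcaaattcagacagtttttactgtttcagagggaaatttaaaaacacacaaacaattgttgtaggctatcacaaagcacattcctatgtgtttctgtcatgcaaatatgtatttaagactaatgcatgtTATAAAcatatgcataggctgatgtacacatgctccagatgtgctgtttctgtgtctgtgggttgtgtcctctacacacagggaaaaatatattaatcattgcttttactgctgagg

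Fibril-associated collagens sit on the surface of fibrils and link them to other matrix. Of 10 such genes 6 were measured, with 2 higher, 1 lower and 3 not past the threshold, against 12.3% higher and 11.2% lower of all genes. Their median difference was 0.25 (range -2.31 to 1.15). Col14a1, which regulates fibril growth, had a large difference on its brightest probe. Its levels were -5.80, -6.18 and -6.15 in Arid3b-null heads and -3.52, -3.64 and -4.04 in wild type heads. The null arrays lay well below the wild type arrays, and Col14a1 was 4.97-fold lower (log2 difference -2.31 ± 0.19, adjusted p = 0.000916). It kept its call in all 18 alternatives, though with normexp background correction the difference was -0.81 (adjusted p = 0.00782) and as the mean of its probes -1.15 (0.00174). Its second kept probe gave 0.02 ± 0.21 (adjusted p = 0.959 among single probes), with levels of -5.54, -5.07 and -5.34 in Arid3b-null heads and -5.64, -5.31 and -5.06 in wild type heads. The fall was seen on one of its 2 probes.

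Col20a1, whose role is little known, was higher. Its levels were -3.04, -2.97 and -2.56 in Arid3b-null heads and -4.01, -4.40 and -3.60 in wild type heads. The groups lay apart, and it was 2.21-fold higher (log2 difference 1.15 ± 0.24, adjusted p = 0.0158). Its second probe gave 1.09 ± 0.26 and passed too (adjusted p = 0.0304). The difference was 0.47 with normexp background correction, and the call was lost without Arid3b-null replicate 3 (adjusted p = 0.0611).

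Col16a1, found in fibrils near basement membranes, had levels of 0.42, 0.32 and 0.55 in Arid3b-null heads and -0.20, -0.26 and 0.01 in wild type heads. It was 1.49-fold higher (log2 difference 0.58 ± 0.14, adjusted p = 0.0262), and a second probe gave 0.76 ± 0.18, past the threshold too. Its dimmest probe was above background on 1 wild type array, passed the filter only through the null arrays, and is not counted here. Its brightest probe lost its call without Arid3b-null replicate 1, 2 or 3 (adjusted p of 0.0966, 0.0625 and 0.0876) or wild type replicate 1 or 2 (0.0760 and 0.0918). The Col16a1 window, chr4:130047590-130047839 on the plus strand, is shown as the one with the most kinds of marked letters among the higher collagens printed, a GC box, a CCAAT box and 1 GCGTG.
Col16a1: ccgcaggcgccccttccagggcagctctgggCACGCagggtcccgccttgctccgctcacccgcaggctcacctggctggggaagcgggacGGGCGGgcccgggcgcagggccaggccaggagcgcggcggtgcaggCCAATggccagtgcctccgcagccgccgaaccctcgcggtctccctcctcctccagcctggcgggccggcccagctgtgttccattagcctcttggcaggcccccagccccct

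The other fibril-associated members were Col9a1 and Col9a2, chains of type IX collagen on cartilage fibrils, and Col22a1, a collagen of tissue junctions. Col9a2 levels were 0.07, -0.08 and 0.47 in Arid3b-null heads and -0.61, -0.66 and 0.05 in wild type heads. Its groups overlapped by the third wild type array, and its difference of 0.56 ± 0.24 did not pass (adjusted p = 0.137, and 0.0373 with the slide as a block). Col9a1 differed by -0.07 ± 0.14 (adjusted p = 0.776). Col22a1 levels lay apart, lower on all null arrays, with a difference of -0.43 ± 0.20 that did not pass (adjusted p = 0.158).

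Of the remaining collagens, Col26a1 had levels of 3.74, 3.73 and 3.89 in Arid3b-null heads and 3.39, 3.11 and 3.11 in wild type heads. All null arrays were above all wild type arrays, and Col26a1 was higher by 0.58 ± 0.14 on the log2 scale (adjusted p = 0.0268). Its call was lost without Arid3b-null replicate 1, 2 or 3 (adjusted p of 0.0902, 0.0736 and 0.0902) or wild type replicate 2 (0.0920). Col8a2, a short-chain collagen of sheet-like matrices, differed by 0.19 ± 0.15 (adjusted p = 0.398).

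**Figure D2:**
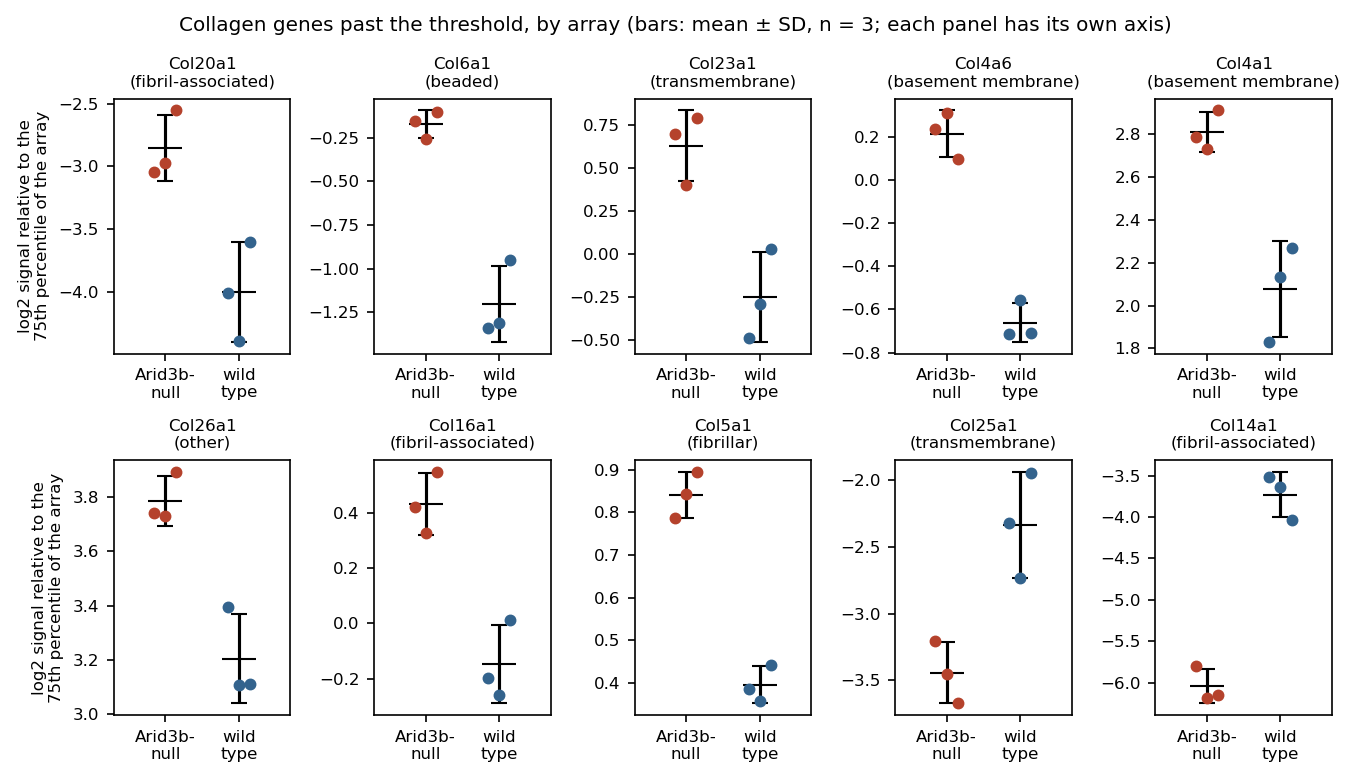
Log2 signal relative to the 75th percentile of the array for the 10 collagens past the threshold, one point per array, with the mean and SD of each group (n = 3). In each panel the 3 Arid3b-null points lie apart from the 3 wild type points, above them in 8 genes and below them in Col25a1 and Col14a1. The genes were picked by the threshold on these same values, which favours such a gap, and 42.4% of all genes tested lay apart.

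Probes of one gene did not always give one answer. Of the 32 genes 10 had more than 1 kept probe, and 18% of all 26288 kept probes passed when tested singly. For Col8a2, Col15a1, Col16a1 and Col25a1 the dimmest kept probe passed the filter only through the Arid3b-null arrays. The 2 probes of Col20a1, and the 2 of Col16a1 that were above background on all 6 arrays, passed in the same direction. For Col4a6 and Col25a1 the probes differed in sign, for Col14a1 the second probe was near 0, and for Col18a1 the dimmer probe passed where the brightest did not. Signals of different probes cannot be set against each other, and which transcripts each probe reads was not analysed here.

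**Figure D3:**
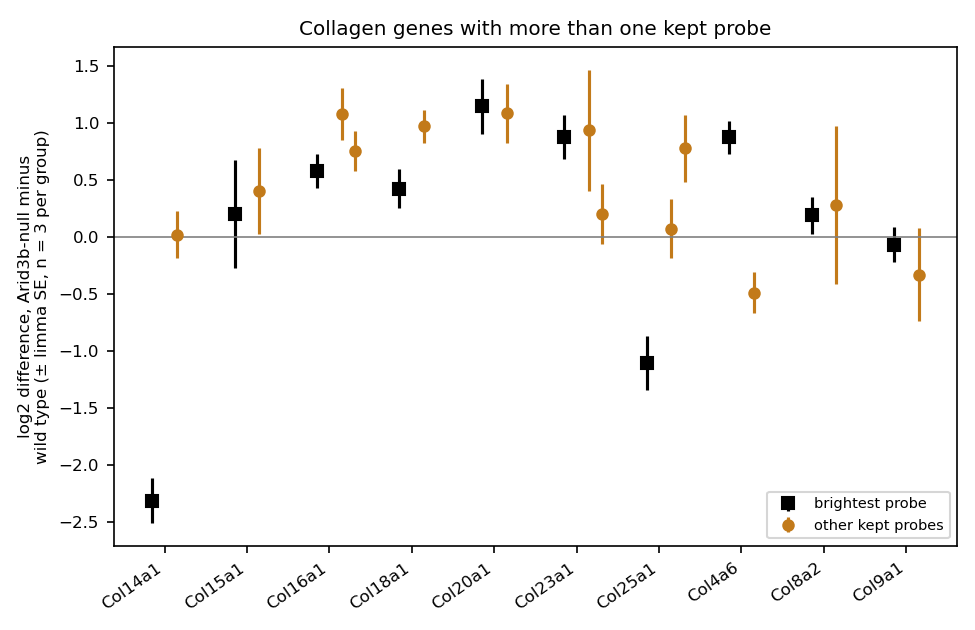
Log2 difference, Arid3b-null minus wild type, of every kept probe of the 10 collagens that had more than 1, with limma standard errors from the fit of single probes (n = 3 per group). Squares are the brightest probe of a gene and circles its other probes, and the circles of Col14a1, Col25a1 and Col4a6 lie far from their squares. For Col8a2, Col15a1, Col16a1 and Col25a1 a circle is drawn although its probe was kept only through the null arrays.

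Across the 250-base windows before the starts of 26 measured collagens, 29 in all, the GC box GGGCGG was in 18, against 32.7% of all 32851 windows of the table and 42.6% of 21263 windows of protein-coding genes. This box was in 4 of 7 windows of higher collagens and in 13 of 21 windows of collagens that did not pass. Median G and C content was 60.4% in the collagen windows, 52.4% in all windows and 55.6% in those of protein-coding genes. ATTAAA was in 0 of the 29 windows and ATCAAA in 2, those of Col5a3 and Col9a2, against 12.7% and 10.6% of all windows. ACGTG was in 4 (16.6% of all windows), GCGTG in 7 (28.2%), CCAAT in 11 (33.8%) and TATAAA in 3 (12.4%). Both strands were searched, and a match is a description of letters and not of binding.

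Genes that make, trim, bind or degrade collagen were counted in 6 lists, of which 72 genes were measured from 82. Lox, Adamts2 and Sp7 passed the filter only through the Arid3b-null arrays and are left out of the counts. Of the other 69, 23 were higher, 5 were lower and 41 did not pass, where 12.3% of all genes tested were higher and 11.2% lower. Enzymes and chaperones acting inside the cell had 7 of 20 higher and none lower, beside the same shares over all genes (12.3% and 11.2%). These included the prolyl hydroxylases P4ha1 and P4ha2, which stabilise the helix, the prolyl hydroxylase P3h2, and the lysyl hydroxylases Plod1 and Plod2, which prepare crosslinks. P4ha1 levels were 0.94, 1.03 and 0.83 in Arid3b-null heads and -0.91, -0.80 and -1.02 in wild type heads, a 3.59-fold rise (log2 difference 1.84 ± 0.13, adjusted p = 0.000754). The groups stood further apart than those of any collagen that rose, and its second probe gave 1.49.

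P4ha2 rose by 1.94 ± 0.18 (adjusted p = 0.00125) and P3h2 by 2.12 ± 0.23 (adjusted p = 0.00203). P3h2 differed by 1.35 with normexp background correction. Plod2 rose by 1.44 ± 0.16, Plod1 by 1.39 ± 0.21, and Creb3l1, a transcription factor known to drive procollagen synthesis in bone, by 1.15 ± 0.13, each past the threshold in all 18 alternatives. The collagen chaperone Serpinh1 differed by 0.29 ± 0.31 (adjusted p = 0.539) and the prolyl isomerase Ppib by -0.36 ± 0.18 (adjusted p = 0.200).

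Of the genes that act outside the cell, 3 of 9 above background on all 6 arrays were higher and 3 lower, against 12.3% and 11.2% of all genes. Pcolce2, one of the lower genes, was called in 9 of 18 alternatives. Its call was lost with the slide as a block (adjusted p = 0.0528) and without Arid3b-null replicate 1, 2 or 3 (0.144, 0.0752 and 0.114). It was also lost without wild type replicate 1 or 2 (0.108 and 0.0980). The crosslinking enzyme Loxl2 had levels of 4.87, 4.65 and 4.76 in Arid3b-null heads and 2.40, 2.13 and 3.12 in wild type heads, a 4.64-fold rise (log2 difference 2.22 ± 0.26, adjusted p = 0.00261), and its other 2 probes gave 1.97 and 1.90. Lox, of the same family, was well above background on all 3 null arrays and on no wild type array, on the probe that was kept. It was kept through the group where it is high and so had to differ, and its other probe was above background on 2 null arrays and 1 wild type array. No fold or test from the main fit is given for it, and calls in other alternatives rest on the same filter. With normexp the kept probe was not called (adjusted p = 0.845). The deposited value table and the fit without the filter on dim probes gave no call either (0.720 and 0.870). In these 2 settings the other probe can stand for the gene, so they do not check the kept one.

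Adamts14, a procollagen N-proteinase, rose by 1.04 ± 0.20 (adjusted p = 0.0121), a call lost without Arid3b-null replicate 3 (adjusted p = 0.0520). Its second probe gave 0.39 and did not pass. Loxl3 rose by 0.57 ± 0.13 (adjusted p = 0.0199), which was lost with normexp (0.30, adjusted p = 0.119), without Arid3b-null replicate 1, 2 or 3 (0.0907, 0.0637 and 0.0629) or wild type replicate 2 (0.0770). Bmp1, which trims the other end of procollagen, had levels of 1.41, 1.60 and 1.37 in Arid3b-null heads and 2.47, 2.49 and 2.11 in wild type heads, and fell by 0.90 ± 0.16 on the log2 scale (adjusted p = 0.00911). Of its dimmer probes, one gave -0.65 and passed among single probes (adjusted p = 0.0207). The other gave -0.36 and did not pass (0.124). The Bmp1 enhancer Pcolce had levels of 2.78, 2.78 and 2.73 in Arid3b-null heads and 3.58, 3.59 and 3.46 in wild type heads, and fell by 0.78 ± 0.12 (adjusted p = 0.00583). Both genes kept their calls in all 18 alternatives.

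Basement membrane partners had 9 of 17 higher and none lower, against 12.3% and 11.2% of all genes, with a median difference of 0.64. With the slide as a block Lama2 lost its call (adjusted p = 0.0543) and Lamb2 gained one (0.0285). Lama5, Lamb1, Lamb3, Lamc1 and Lama4 encode laminin chains, and Nid2 a linker between laminin and type IV collagen. Lamb1 levels were 3.99, 4.05 and 3.73 in Arid3b-null heads and 2.66, 2.87 and 2.77 in wild type heads, a 2.22-fold rise (log2 difference 1.15 ± 0.14, adjusted p = 0.00316). Nid2 rose by 1.40 ± 0.14 (adjusted p = 0.00170), Lama5 by 1.59 ± 0.23 (adjusted p = 0.00476) and Lama4 by 0.89 ± 0.15 (adjusted p = 0.00856), none overlapping between groups. Lamc1 rose by 0.81 ± 0.15 (adjusted p = 0.0110), a call lost without Arid3b-null replicate 1 (adjusted p = 0.0540). The dim Lamb3 rose by 1.52 ± 0.13 (adjusted p = 0.00106), but with normexp background correction it differed by 0.35 (adjusted p = 0.116).

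Of 9 measured collagen receptors 2 were higher and 1 lower, against the same 12.3% and 11.2%. Itgb1, the beta chain of the collagen-binding integrins, rose by 0.60 ± 0.12 (adjusted p = 0.0151), and its second probe gave 0.78. The receptor kinase Ddr2 rose by 0.51 ± 0.14 (adjusted p = 0.0417) and the proteoglycan Cspg4, a type VI collagen binder, fell by 1.15 ± 0.28 (adjusted p = 0.0278). Itgb1 lost its call without Arid3b-null replicate 1, 2 or 3 (adjusted p of 0.0716, 0.0509 and 0.0546). Cspg4 lost its call without the same arrays (0.0973, 0.0798 and 0.0767), without wild type replicate 2 (0.0629) and with dim probes left in (0.0619). With normexp it differed by -0.60. Ddr2 lost its call when any Arid3b-null array or wild type replicate 1 or 2 was left out (adjusted p from 0.0936 to 0.138). It also lost it with normexp (0.0505), with median centring (0.0664), in the deposited value table (0.0751), with dim probes left in (0.0845) and with the mean of its probes (0.134). It was called in 7 of 18 alternatives, and its second probe gave 0.39 (adjusted p = 0.372).

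Of 8 measured collagenases and inhibitors, the metalloproteinase inhibitors Timp3 and Reck were higher and Timp1 lower, against 12.3% and 11.2% of all genes. Timp3 rose by 1.06 ± 0.17 (adjusted p = 0.00595), with a call in all 18 alternatives. Reck rose by 0.68 ± 0.14 (adjusted p = 0.0173), lost without Arid3b-null replicate 1 or 2 (adjusted p of 0.0752 and 0.0681). Timp1 was at the threshold, with a fall of 0.73 ± 0.22 (adjusted p = 0.04996), lost when any Arid3b-null array or wild type replicate 1 or 2 was left out (0.0815 to 0.155). Mmp2, a gelatinase, differed by 0.63 ± 0.21 (adjusted p = 0.0665, and 0.0320 with the slide as a block). None of 6 cartilage and bone factors above background on all arrays passed, and Sox9, the activator of Col2a1, differed by -0.02 ± 0.22.

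**Figure D4:**
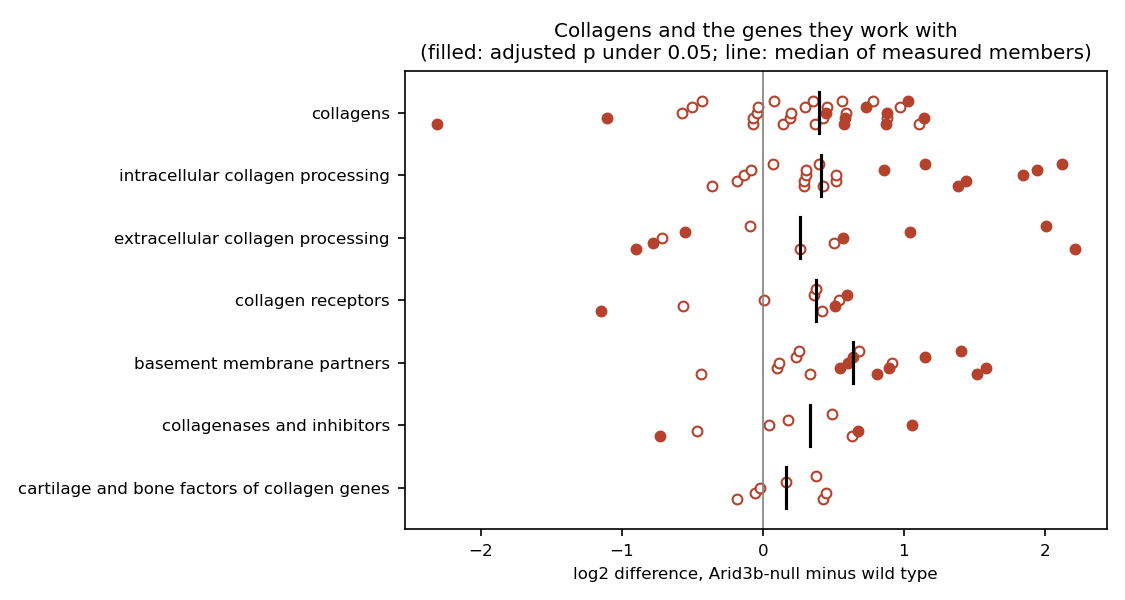
Log2 difference, Arid3b-null minus wild type, of each measured collagen and of each gene in 6 lists of genes that collagens work with (n = 3 arrays per group). Filled points passed an adjusted p of 0.05 and black lines are medians, which run from 0.17 for cartilage and bone factors to 0.64 for basement membrane partners. Lox, Adamts2 and Sp7 are drawn although they were kept only through the null arrays.

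Markers of the tissues that hold collagen were summed on each array, as linear signal relative to the 75th percentile. Beside the counts of called markers below, 12.3% of all genes tested were higher and 11.2% lower. The 8 mesenchyme and neural crest markers summed to 15.6 to 17.9 in Arid3b-null heads and 11.7 to 15.5 in wild type heads, with 2 higher, 1 lower and 5 not past the threshold. Tfap2a, a regulator of neural crest and ectoderm, rose by 0.97 ± 0.13 (adjusted p = 0.00347). Prrx1, a mesenchymal homeobox gene, fell by 0.85 ± 0.17 (adjusted p = 0.0129). The Prrx1 call was lost without Arid3b-null replicate 1 or 3 (0.0502 and 0.0530), and the mean of its probes differed by -0.09 (0.763). The 8 surface ectoderm markers summed to 37.8 to 39.9 in Arid3b-null heads and 24.7 to 51.0 in wild type heads, with 1 higher (Wnt6) and none with the slide as a block (adjusted p = 0.0535). The 8 endothelial markers summed to 22.6 to 26.6 in Arid3b-null heads and 23.6 to 27.7 in wild type heads, with none past the threshold.

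The 8 neural tube markers summed to 55.6 to 59.7 in Arid3b-null heads and 69.2 to 77.9 in wild type heads. Of them 1 was higher, 4 were lower and 3 did not pass, against 12.3% higher and 11.2% lower of all genes tested. Fabp7 of radial glia fell by 1.56 ± 0.21 (adjusted p = 0.00388) and Nes, a filament of neural progenitors, by 0.93 ± 0.14 (adjusted p = 0.00477). The higher one, Otx2, rose by 0.57 ± 0.16 (adjusted p = 0.0401), a call kept in 10 of 18 alternatives. The 5 measured notochord and prechordal plate markers summed to 1.28 to 1.63 in Arid3b-null heads and 1.29 to 1.90 in wild type heads. Of the 4 above background on all 6 arrays, 1 was lower. T passed the filter only through the Arid3b-null arrays and is left out of this count, and Noto was not kept. The 8 erythroid markers summed to 420 to 852 in Arid3b-null heads and 533 to 736 in wild type heads, with 1 lower. The neural tube sums thus lay apart between groups, while the mesenchyme sums nearly met, at 15.6 in Arid3b-null replicate 2 and 15.5 in wild type replicate 3. The part of tissue makeup in the collagen differences was not tested.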

How the data were processed

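Total RNA of 6 pools was hybridised to 1-colour Agilent arrays. The file headers name Agilent Feature Extraction 10.7.3.1 as the reading software, and the deposited files hold the processed intensity of each spot, the median intensities of spot and background, and flags. The authors also deposited a table of log2 values for 24181 rows, of which 24158 matched non-control probes. Its column medians were 6.76 to 6.77 and its columns correlated with the log2 scanner signal at 0.999 or more, so direction is that of the signal, while its exact scaling stays unknown. The deposited flags, of other type, mark spots well above background, saturated or outlying.

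Values are log2 of the processed intensity minus the 75th percentile of the array over non-control spots. Spots flagged as outliers, 84 to 156 on an array, were dropped before replicate spots were averaged. A RefSeq accession gave 1 symbol to 26424 of the 39429 probes and none to 13005. The filter kept 26288 probes (every array of 1 group well above background, a value on 5 or more arrays), and the brightest stood for each of 14906 genes. Groups were compared with limma 3.58.1 in R 4.3.3 (lmFit, eBayes) with Benjamini-Hochberg adjustment over all genes and a threshold of 0.05. A slide was also a scan and held 1 replicate number, so slide block and replicate block are 1 fit. Every measured collagen is named. So are up to 6 called genes of each partner list with the smallest p, and up to 2 of a marker list. Serpinh1, Ppib, Mmp2 and Sox9, which did not pass, and Otx2, which did, were added after their values were seen. Members, lists and rules were chosen with earlier results of these data known. Alternatives were other scalings, normexp (offset 50), the deposited table, other dim-probe filters, probe averaging, a variance trend, array weights, the block, thresholds of 0.01 and 0.1, and each array left out in turn. Within-slide differences and single-probe tests were added after seeing the data.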

Additional observations from a re-analysis of the deposited data

How the results depend on the processing

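Array weights raised the count of changed collagens to 19 (16 higher) and of changed pathway genes (29 in the fit of all genes, Lox included) to 45, in a setting where 44.8% of all genes passed. An adjusted p under 0.01 left 3 changed collagens (2 higher, 1 lower) and 16 pathway genes, and one under 0.1 gave 13 higher collagens. Without the filter on dim probes, where 20021 genes were tested, 5 collagens were higher, and the mean of kept probes left 1 lower. The replicate block gave 14 changed collagens, adding Col1a1, Col4a2, Col6a2, Col13a1 and Col9a2 and losing Col5a1. Same-numbered arrays correlated at -0.199, 0.153 and 0.418 in their deviations from the group means, so the numbers were taken to share only a slide and scan. Leaving out 1 array gave 3 to 17 changed collagens (2 to 15 higher, 1 to 2 lower) and 17 to 42 changed pathway genes, while 10.2% to 34.9% of all genes passed in the same settings. The 17 and the 42 came without wild type replicate 3, and the 3 without Arid3b-null replicate 3. Of the changed collagens, only Col6a1 and Col14a1 kept their calls in all 18 alternatives; Col4a6 kept it in 17, Col20a1 in 16, Col4a1 and Col25a1 in 14, Col23a1 and Col26a1 in 12, Col16a1 in 11 and Col5a1 in 8.

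The collagen median was 0.18 within slide 3. The fibrillar median was 0.05 with normexp, 0.24 both after quantile normalization and in the deposited table, 0.30 with array weights and 0.09 to 0.27 when 1 array was left out. The basement membrane median was 0.72 in the deposited value table, where another probe of a gene can be the brightest. It was 0.68 with array weights and 0.83 within slide 1. The beaded median was 0.73 with normexp, 0.62 without the filter and 0.77 within slide 3. The transmembrane median was 0.17 with normexp, 0.36 without the filter and 1.17 within slide 1. The fibril-associated median was 0.11 without the filter, 0.33 with array weights, 0.16 within slide 3 and 0.14 to 0.33 when 1 array was left out. No result that passed reversed its direction in any alternative. The cause was not tested, except that a stricter or looser threshold and fewer arrays change calls by construction. The differences of the dim genes Col13a1, Col14a1 and Col20a1 were smaller with normexp, and signal over background limits their values.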
